A study of Homo sapiens with 4 samples.

Results

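The genes described here encode the axon guidance ligands and receptors of the semaphorin, netrin, SLIT and ephrin systems, and their promoters were followed in human embryonic stem cells (hESCs) before and after induction of a histone demethylase. Members were taken by gene symbol: SEMA, NTN, NTNG, SLIT, EFNA and EFNB genes as ligands, and PLXN, NRP, DCC, UNC5, ROBO, EPHA and EPHB genes as receptors. The symbols picked 70 promoters, 36 of ligands and 34 of receptors, out of 20242 in the series. JMJD3c-hESCs are stable derivatives of the hESC line SEES-3 that carry a doxycycline (Dox)-inducible, nuclear, HA-tagged JMJD3c, the catalytic domain of the H3K27 demethylase JMJD3. Chromatin immunoprecipitation sequencing was performed for H3K27me3, the mark laid down by Polycomb repressive complex 2, and for H3K4me3, the mark of active or poised promoters. Untreated cells (−Dox), which carry the same construct, and cells given Dox at 1 µg/ml (+Dox) were both collected on day 3. Each of these 4 groups holds 1 library, so no value has a replicate error and no p-value is given.

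Guidance cues steer the growth cone, the motile tip of a growing axon, by attraction or repulsion. Secreted class 3 semaphorins bind neuropilins and signal through plexins, most other semaphorins bind plexins directly, netrins attract through DCC and repel through UNC5 receptors, SLITs repel through ROBO receptors, and membrane-bound ephrins act on Eph receptor tyrosine kinases of neighbouring cells. The same molecules also guide blood vessels and migrating cells. Promoters that carry H3K4me3 and H3K27me3 together are called bivalent.

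The promoters printed here come from 3 of the 4 chromatin classes described below. The 250 bases before the deposited transcription start are given 5′ to 3′ on the strand of the gene, from the human build GRCh37 (hg19), with every CG dinucleotide in capitals, because Polycomb marks and H3K4me3 both concentrate at CpG-rich promoters. ROBO3 (chr11:124735078-124735327, + strand) had the highest H3K27me3 of the members, EFNB1 (chrX:68048614-68048863, + strand) had the lowest +Dox/−Dox ratio of H3K27me3 among the bivalent members, and PLXNB3 (chrX:153029401-153029650, + strand) had the lowest sum of both marks.
ROBO3: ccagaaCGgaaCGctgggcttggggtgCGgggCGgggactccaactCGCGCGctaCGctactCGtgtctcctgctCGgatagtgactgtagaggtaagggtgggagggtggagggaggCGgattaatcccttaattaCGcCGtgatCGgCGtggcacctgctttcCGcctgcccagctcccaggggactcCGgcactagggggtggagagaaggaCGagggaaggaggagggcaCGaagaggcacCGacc
EFNB1: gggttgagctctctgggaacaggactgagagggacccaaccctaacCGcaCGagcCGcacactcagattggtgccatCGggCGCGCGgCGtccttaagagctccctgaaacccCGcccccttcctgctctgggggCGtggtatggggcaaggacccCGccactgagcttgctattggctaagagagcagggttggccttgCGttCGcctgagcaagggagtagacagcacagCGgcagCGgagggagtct
PLXNB3: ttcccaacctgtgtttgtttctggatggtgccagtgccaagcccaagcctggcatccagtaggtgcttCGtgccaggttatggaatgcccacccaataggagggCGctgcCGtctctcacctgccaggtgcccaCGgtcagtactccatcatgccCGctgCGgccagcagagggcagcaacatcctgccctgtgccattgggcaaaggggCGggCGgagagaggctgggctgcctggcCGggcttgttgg
ROBO3 holds 20 CG dinucleotides in these bases, EFNB1 15 and PLXNB3 9. The median over the 18244 promoters placed on the genome was 16, and 96.7% of those promoters held at least 1. Fewer CG dinucleotides than in PLXNB3 were counted in 32.8% of promoters, and fewer than in ROBO3 in 58.6%.

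All values below are the deposited signal, which is read coverage scaled to library size and summed over 3 kb on each side of the start. Such values are relative within a library and do not show a uniform loss over the genome. By immunoblot, the study reported a significant reduction of H3K27me3 in these cells after Dox. A +Dox/−Dox ratio near or above 1 is therefore not a measure of an unchanged or gained amount of the mark. The summed signal over all promoters was 251063 and 213388 for H3K27me3 in −Dox and +Dox, and 919251 and 896546 for H3K4me3. A value of 20, the threshold above which a promoter counts as marked, corresponds to about 15.5 to 20.5 reads, depending on the library. As a check of cell type, 11 of 12 pluripotency genes were marked by H3K4me3 alone in −Dox, including SOX2, NANOG and LIN28A, but 54.2% of all promoters were in this class, so the check is a weak one. The exception was POU5F1, which is measured at another start, 10049 bp from the canonical start.

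Before induction, 27 of the 70 members (38.6%) were bivalent, whereas 9.42% of all promoters were. Another 28 members carried H3K4me3 only, 2 carried H3K27me3 only, and 13 were unmarked. Bivalency was counted at 15 of 34 receptors (44.1%) and at 12 of 36 ligands (33.3%). By system, 9 of 30 genes of the semaphorin system were bivalent, 5 of 11 of the netrin system, 4 of 7 SLIT and ROBO genes, and 9 of 22 ephrin and Eph genes. Both neuropilins and all 3 SLITs were bivalent, against 1 of 6 class 3 semaphorins and 2 of 13 semaphorins of classes 4 to 7. The semaphorin system was therefore split, with few bivalent ligands and 6 bivalent promoters among its 11 plexins and neuropilins. The lowest H3K27me3 among bivalent members was 26.6, at SLIT3 and EPHB3, and the highest value under the threshold was 19.8, at NTN3. For H3K4me3, PLXNA3 lay just above the threshold at 20.5 and EPHA8 just below it at 19.9.

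**Figure D1:**
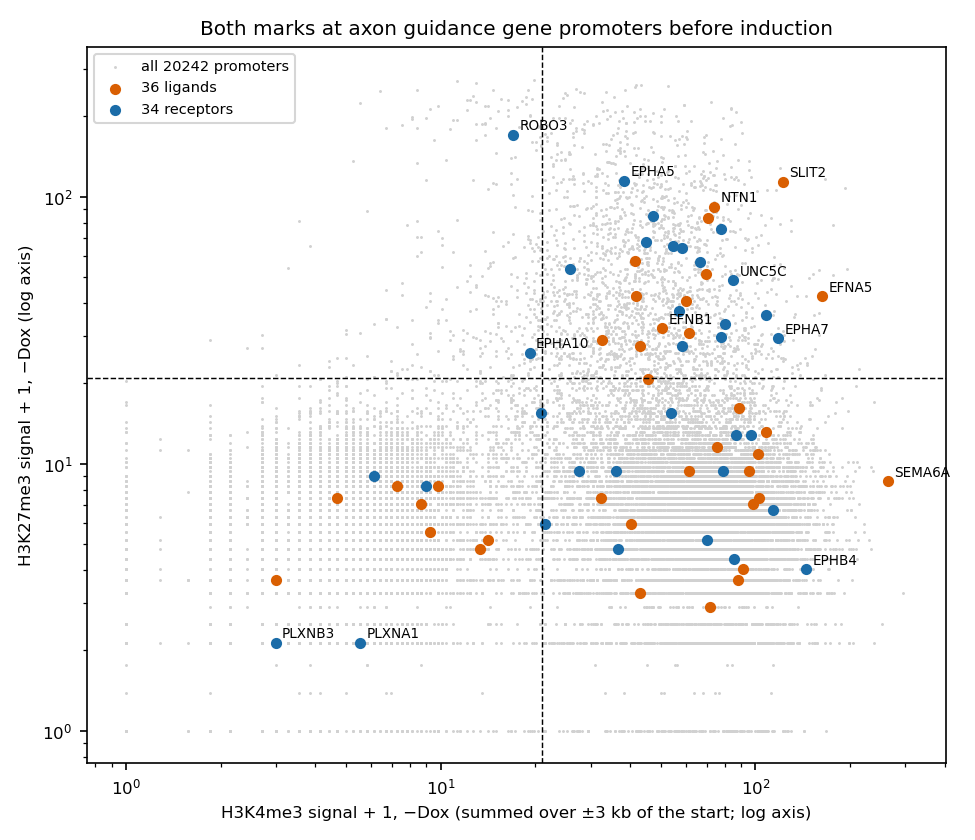
H3K4me3 signal (x axis, log scale, 1 added) against H3K27me3 signal (y axis, log scale, 1 added) in −Dox, for all 20242 promoters (grey), 36 ligands (orange) and 34 receptors (blue), each point being 1 promoter in 1 library per mark. Dashed lines mark the value of 20, and the 27 bivalent members fill the upper right, with ROBO3 and EPHA10 alone to its left.

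After induction, H3K27me3 was lower at 26 of the 27 bivalent members, and the median of the 27 values went from 47.9 to 24.6. SLIT1 was the exception. Over all 1907 bivalent promoters, 1671 were lower and 236 higher, and the median went from 43.0 to 24.2. The median log2 ratio (+Dox/−Dox) of the bivalent members was −1.04, with a 95% interval over the members of −1.73 to −0.72, beside −0.81 for all bivalent promoters. That interval reflects the spread among genes within 1 pair of libraries and holds no error between libraries. The ratio was below 0.5 at 14 members (51.9%), beside 40.8% of all bivalent promoters, and below 0.66 at 21 members (77.8%), beside 61.4%. The class was set on the −Dox values, which are also the denominator of the ratio, so the choice itself favours lower values in +Dox. With classes from the +Dox values, which favour the reverse, the median log2 ratio was −0.86 for members and −0.47 for all bivalent promoters. With approximate reads taken as counts, the 95% interval of the ratio lay below 1 at 17 members (63.0%), beside 47.8% of all bivalent promoters. It lay above 1 at no bivalent member, beside 2.10%. These intervals of single ratios cover counting error only and compare 2 libraries, not 2 conditions. Scaling both H3K27me3 libraries to the same total multiplies every +Dox value by 1.18 and moves the median log2 ratio of all promoters from −0.14 to 0.10. H3K27me3 was then lower at 24 of the 27 members, all except SLIT1, EFNA1 and NTN1, and the interval lay below 1 at 14, without PLXNA4, PLXNC1 and NTN4, beside 31.1% of all bivalent promoters under that scaling.

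H3K4me3 stayed above the threshold at these promoters. Its median over the bivalent members was 59.3 in −Dox and 61.1 in +Dox, with 14 members lower and 13 higher, and a median log2 ratio of −0.03. Over all bivalent promoters the median log2 ratio was −0.18, with 1289 lower and 618 (32.4%) higher. The interval of the H3K4me3 ratio included 1 at all 27 bivalent members, while it lay below 1 at 9.65% and above 1 at 1.57% of all bivalent promoters. The direction of H3K4me3 depended on the scaling: with the median ratio of low promoters, those under 10, set to 1, +Dox values are multiplied by 0.892, and 21 of the 27 were lower and 6 higher, beside 18.6% higher over all bivalent promoters. Every one of the 27 stayed above 20 for H3K4me3 in +Dox, as did 1718 of all 1907 bivalent promoters. By the same threshold, 17 members (63.0%) were still bivalent in +Dox and 10 (37.0%) had become H3K4me3-only, beside 51.0% and 39.1% of all bivalent promoters. The 10 were SEMA4F, PLXND1, NRP2, UNC5C, SLIT3, EFNA5, EFNB1, EPHA4, EPHA7 and EPHB3. All 10 started at 47.9 or less for H3K27me3, so the class in +Dox depends on the starting level as well as the ratio. SLIT2 and EPHA5 had ratios of 0.484 and 0.487 but started at 113 and 114 and stayed bivalent. At PLXND1 and SLIT3 the interval of the H3K27me3 ratio included 1. No member moved to H3K27me3-only or unmarked, the states reached by 7.24% and 2.67% of all bivalent promoters. The bivalent members also started with more H3K4me3, a median of 59.3 in −Dox beside 45.3 over all bivalent promoters. Promoters chosen as bivalent in −Dox can only keep or lose a mark in this count.

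**Figure D2:**
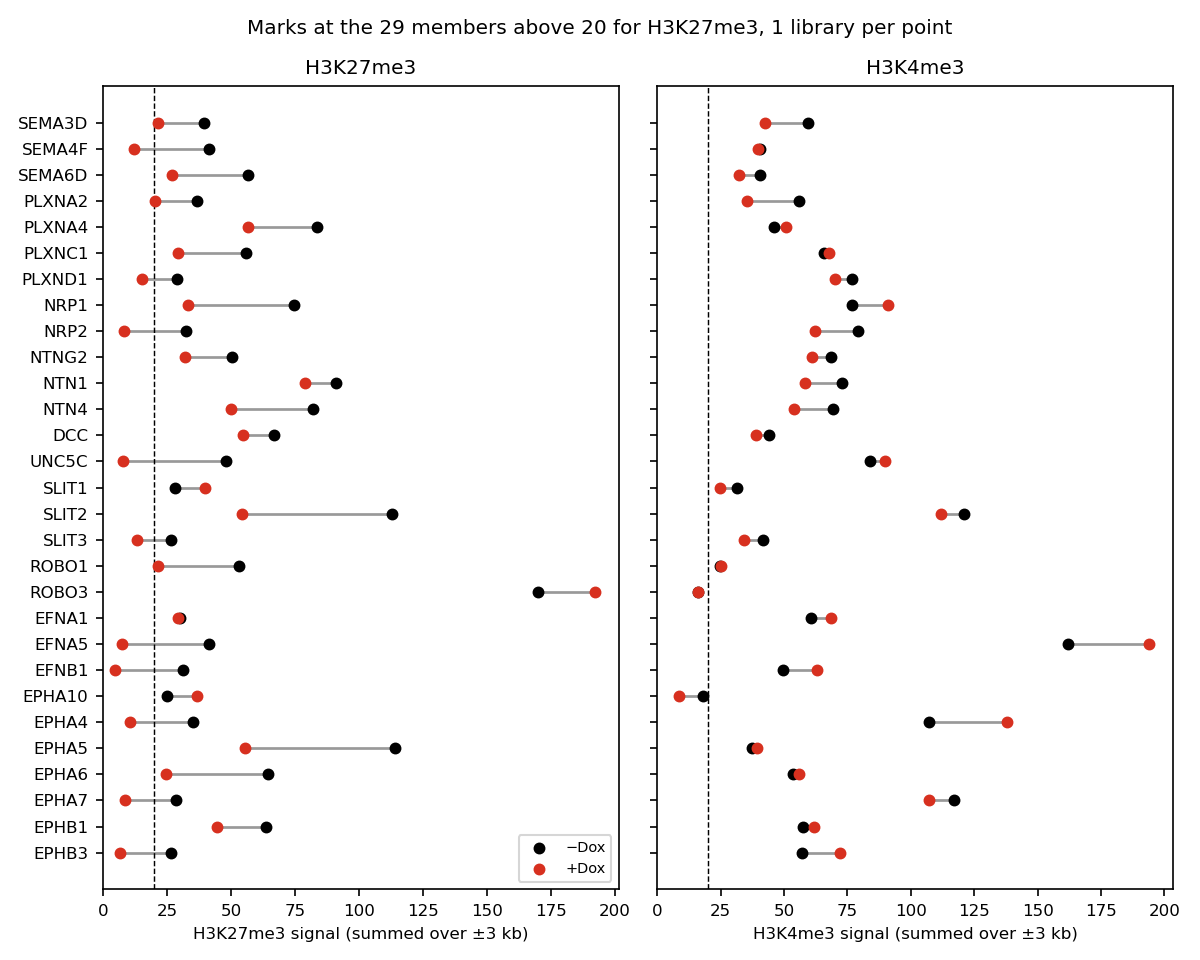
H3K27me3 (left) and H3K4me3 (right) signal in −Dox (black) and +Dox (red) for the 29 members above 20 for H3K27me3, ordered by family, each point being 1 library and the dashed line the value of 20. Red points lie left of black ones for H3K27me3 at all members except SLIT1, ROBO3 and EPHA10, while for H3K4me3 they lie on either side.

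H3K27me3 was lower in +Dox at most ligands and receptors alike. Among the 12 bivalent ligands the median log2 H3K27me3 ratio was −0.94, with 5 ratios below 0.5, and H3K4me3 was lower at 9 and higher at 3. Among the 15 bivalent receptors it was −1.17, with 9 ratios below 0.5, and H3K4me3 was lower at 5 and higher at 10. With both libraries scaled to the same total, 3 ligands and 7 receptors had an H3K27me3 ratio below 0.5. With low promoters set to a ratio of 1, H3K4me3 was lower at 9 ligands and at 12 receptors. By system, the median log2 H3K27me3 ratio was −0.65 for the 5 bivalent genes of the netrin system, −0.94 for the 9 of the semaphorin system, −1.02 for the 4 SLIT and ROBO genes and −1.73 for the 9 ephrin and Eph genes. The ranges of the 4 systems overlapped, and the difference between them was not tested. In the same order of systems, the median −Dox H3K27me3 of these bivalent genes was 66.6, 41.5, 40.5 and 35.0. Spearman's rho between the −Dox H3K27me3 level and the log2 ratio was 0.33 over all bivalent promoters and 0.23 over the bivalent members. The part of the starting level in the order of the systems was not tested.

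Among the systems, the ephrin and Eph genes had the lowest median ratio and also the lowest median H3K27me3 in −Dox. The H3K27me3 ratio was below 0.5 at 7 of their 9 bivalent genes (77.8%), beside 40.8% of all bivalent promoters. With both libraries scaled to the same total it was below 0.5 at 6 of the 9, beside 29.7%. H3K4me3 was higher in +Dox at 8 of 9, with a median log2 ratio of 0.18. Over all bivalent promoters, H3K4me3 was higher at 32.4%, with a median of −0.18. With low promoters set to a ratio of 1, H3K4me3 was higher at 5 of 9, with a median of 0.01, beside 18.6% and −0.34. EFNB1, the X-linked transmembrane ephrin-B1, had H3K27me3 of 31.2 in −Dox and 4.47 in +Dox, about 24.2 and 3.51 reads, a ratio of 0.143 with an interval of 0.0416 to 0.480. Its H3K4me3 was 49.6 in −Dox and 63.0 in +Dox. EFNB1 thus passed from bivalent to H3K4me3-only. The other B-type ligands, EFNB2 and EFNB3, started without H3K27me3, at 9.89 and 8.37, and with H3K4me3 of 101 and 60.7.

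EFNA5, a lipid-anchored ephrin that repels retinal axons in the topographic map, had H3K27me3 of 41.5 in −Dox and 7.46 in +Dox, a ratio of 0.180 with an interval of 0.0634 to 0.450. It had the highest H3K4me3 of the bivalent members, 162 in −Dox and 194 in +Dox. EFNA1, the other bivalent ephrin-A, stayed bivalent, with 30 in −Dox and 29.1 in +Dox and an interval of 0.530 to 1.84. EFNA2, EFNA3 and EFNA4 were H3K4me3-only. The starts of EFNA3 and EFNA4 lie 8 bp apart in the deposited table, so their windows hold nearly the same reads and their values, 87.2 and 90.3 for H3K4me3 in −Dox, are not separate measurements.

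Among the Eph receptors, EPHA4, which binds ephrins of both classes, had H3K27me3 of 35.0 in −Dox and 10.4 in +Dox, a ratio of 0.298 with an interval of 0.115 to 0.663. Its H3K4me3 was 107 in −Dox and 138 in +Dox, a ratio of 1.29 with an interval of 0.982 to 1.70 that excluded 1 only when both libraries were scaled to the same total. EPHA5 had the highest H3K27me3 of the bivalent members, 114, which was 55.6 in +Dox, so that it stayed bivalent at a ratio of 0.487 (0.336 to 0.718). EPHA6 went from 64.3 to 24.6 and EPHA7 from 28.5 to 8.58, with ratios of 0.383 and 0.301. All 4 bivalent EphA receptors therefore had an interval below 1. Of the EphB receptors, EPHB3 had values of 26.6 and 6.71 and a ratio of 0.252 (0.0694 to 0.642), whereas EPHB1 had 63.5 and 44.4 and a ratio of 0.699 with an interval of 0.444 to 1.11. EPHB2 and EPHB4 carried H3K4me3 only. The start of EPHB4 lies 703 bp from that of SLC12A9, so its window also covers that promoter.

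EPHA10, a receptor without kinase activity, was one of the 2 members with H3K27me3 only. Its H3K27me3 was 25.1 in −Dox and 36.5 in +Dox, and its H3K4me3 was 18.2 and 8.58. Both intervals included 1, at 0.818 to 2.85 for H3K27me3 and 0.172 to 1.20 for H3K4me3. H3K27me3 was lower in +Dox at all 9 bivalent ephrin and Eph genes, but the intervals of EFNA1 and EPHB1 included 1 as well. EFNA1 was not lower with both libraries scaled to the same total.

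In the semaphorin system, both co-receptors had an interval below 1. NRP1, the neuropilin that binds SEMA3A, had H3K27me3 of 74.5 in −Dox and 33.2 in +Dox, a ratio of 0.445 with an interval of 0.268 to 0.716. NRP2, which binds SEMA3F, had 32.3 and 8.20, a ratio of 0.254 with an interval of 0.0796 to 0.593. NRP2 became H3K4me3-only, while NRP1 stayed bivalent. In −Dox, H3K27me3 was 6.47 at SEMA3A and 8.37 at SEMA3F, under the threshold at both deposited starts. SEMA3A was unmarked, with H3K4me3 of 3.70 and 9.32, but the start in the table and the canonical start are 297935 bp apart. SEMA3F was H3K4me3-only, with H3K4me3 of 94.6 and 70.5. SEMA3D was the bivalent class 3 semaphorin, with H3K27me3 of 39.6 in −Dox and 21.3 in +Dox and an interval of 0.282 to 1.01.

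Of the 9 plexins, the receptors that pass the semaphorin signal to small GTPases, 4 were bivalent. PLXNA4, an axonal receptor for class 3 and class 6 semaphorins, had the highest H3K27me3 of the plexins, 83.7 in −Dox and 56.7 in +Dox, and its interval of 0.446 to 0.997 reached almost to 1. PLXNC1, the receptor for SEMA7A, had 55.9 and 29.1, a ratio of 0.520 (0.304 to 0.898), while SEMA7A itself carried H3K4me3 only, at 71.0 and 71.6. PLXND1, the receptor of SEMA3E in vessels, had 28.9 and 15.3, and PLXNA2 had 36.5 and 20.1; the intervals of both included 1. SEMA3E was unmarked in −Dox with H3K4me3 of 13.1, and at 20.9 in +Dox it just passed the threshold. The ratios of the 4 bivalent plexins lay within 0.520 to 0.677, so that none was below 0.5.

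PLXNB1, the receptor of SEMA4D, carried H3K4me3 only, at 84.3 and 78.3, as did SEMA4D, at 39.3 and 43.6. The 2 bivalent transmembrane semaphorins were SEMA4F and SEMA6D. SEMA4F had H3K27me3 of 41.5 in −Dox and 11.9 in +Dox, a ratio of 0.288 with an interval of 0.117 to 0.596, and its H3K4me3 stayed at 40.7 and 39.9. SEMA6D had 56.7 and 26.8, a ratio of 0.474 with an interval of 0.267 to 0.811. For SEMA6D these starts are 533404 bp apart, so its value belongs to a distant start of the gene.

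In the netrin system, the intervals of the main ligand and of its attractive receptor included 1. NTN1, the founding vertebrate netrin, had 90.9 in −Dox and 79.0 in +Dox, a ratio of 0.870 with an interval of 0.604 to 1.23. DCC, through which netrin-1 attracts axons, had 66.6 and 54.8, a ratio of 0.823 with an interval of 0.533 to 1.25. UNC5C, a receptor for netrin repulsion, had instead 47.9 in −Dox and 7.83 in +Dox, about 37.2 and 6.14 reads, and its ratio of 0.163 had an interval of 0.0553 to 0.383. The interval of UNC5C thus did not overlap those of NTN1 and DCC, which is a comparison within the same pair of libraries. H3K4me3 at UNC5C was 84.1 and 89.9. The other UNC5 receptors, UNC5A, UNC5B and UNC5D, were H3K4me3-only, with H3K27me3 between 5.70 and 14.5 in −Dox. NTN4, a netrin that binds laminin, had 82.1 and 50.0, a ratio of 0.608 (0.394 to 0.911), and NTNG2, a membrane-anchored netrin-G, had 50.2 and 32.1 with an interval of 0.368 to 1.07. NTN3, just under the threshold in −Dox, had H3K27me3 of 19.8 and 9.32.

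The SLIT and ROBO genes included the highest H3K27me3 values of the ligands and of the receptors. SLIT2, a midline repellent, had 113 in −Dox and 54.4 in +Dox, a ratio of 0.484 with an interval of 0.331 to 0.712, and H3K4me3 of 121 and 112, so that it remained bivalent. SLIT3 had 26.6 and 13.4, with an interval of 0.226 to 1.12. SLIT1 was the bivalent member with a higher scaled H3K27me3 value in +Dox, 28.1 in −Dox and 39.9 in +Dox, but its interval of 0.781 to 2.53 included 1. ROBO1, a SLIT receptor, had 52.9 and 21.6, a ratio of 0.409 (0.218 to 0.738), and H3K4me3 of 24.8 and 25.0, the former being the lowest −Dox value of the bivalent members. The 3 SLITs thus covered ratios from 0.484 to 1.42.

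ROBO3, the receptor that lets commissural axons cross the midline, had H3K27me3 of 170 in −Dox and 192 in +Dox, about 132 and 151 reads. The ratio of 1.13 had an interval of 0.890 to 1.44, which lies wholly above those of SLIT2 and ROBO1. H3K4me3 at ROBO3 was 16.0 in both conditions. ROBO2 was H3K4me3-only, with 1133404 bp between its start in the table and the canonical start, and ROBO4, an endothelial member, was unmarked.

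**Figure D3:**
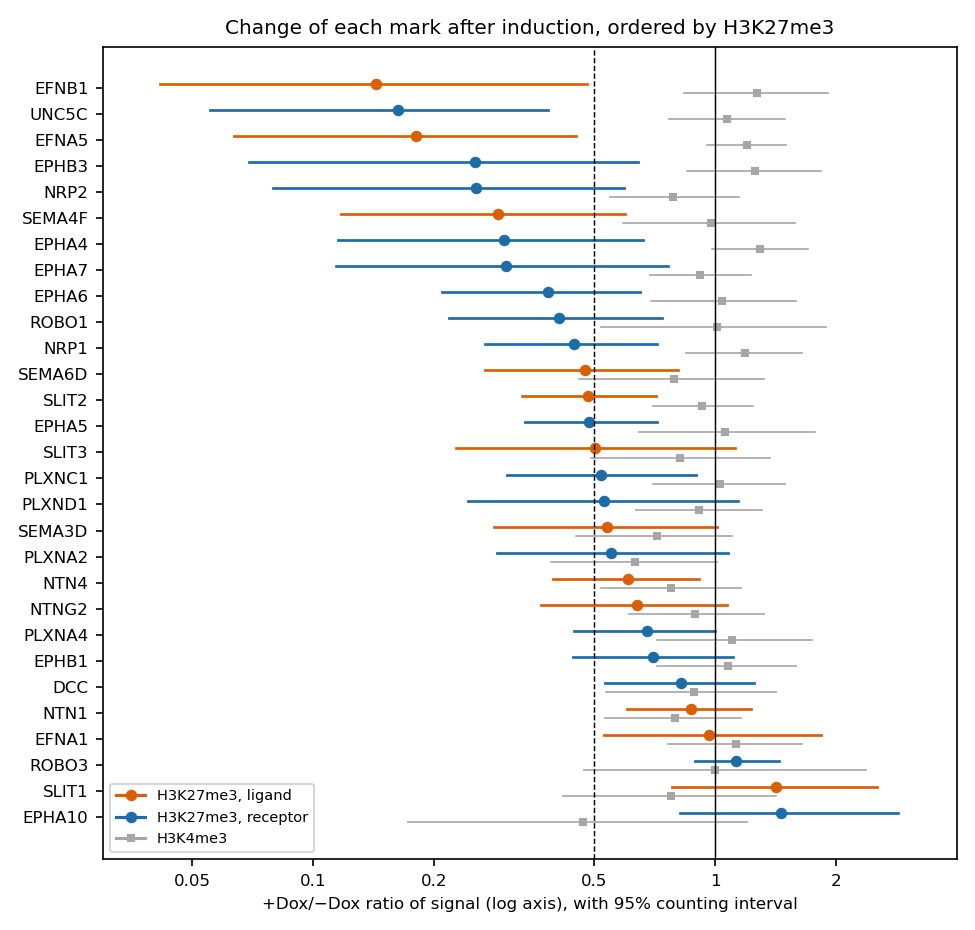
Ratio of +Dox to −Dox signal (x axis, log scale) with its 95% counting interval for the 29 members above 20 for H3K27me3, ordered by the H3K27me3 ratio, with H3K27me3 in orange (ligands) or blue (receptors) and H3K4me3 in grey squares; lines at 1 and, dashed, at 0.5. The H3K27me3 ratios run from 0.143 at EFNB1 to 1.46 at EPHA10, while every H3K4me3 interval crosses 1.

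The share of bivalent members with a ratio below 0.5 was also set beside that of all bivalent promoters within ranges of the starting level. With −Dox H3K27me3 between 20 and 40, 5 of 11 members (45.5%) were below 0.5, beside 54.0% of 859 promoters. Between 40 and 80, 7 of 11 members (63.6%) were below 0.5, beside 39.4% of 614. Above 80, 2 of 5 members (40%), SLIT2 and EPHA5, were below 0.5, beside 16.8% of 434. With 11, 11 and 5 members in the ranges, 1 gene can remove the difference in the lowest range and most of it in the highest. No trend with the starting level is therefore drawn from these shares.

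The changes of both marks were set against each other. Across the 27 bivalent members, Spearman's rho between the log2 ratios was −0.45 and Pearson's r −0.46, beside −0.36 and −0.36 across all 1907 bivalent promoters. EFNB1, EFNA5, EPHB3 and EPHA4 combined H3K27me3 ratios from 0.143 to 0.298 with H3K4me3 ratios from 1.20 to 1.29, but each of these H3K4me3 intervals included 1. Similarly low H3K27me3 ratios, from 0.163 to 0.301, at UNC5C, NRP2, SEMA4F and EPHA7 went with H3K4me3 ratios of 1.07, 0.786, 0.979 and 0.919. The correlation with the −Dox H3K4me3 level was −0.25 by Spearman's rho and −0.40 by Pearson's r, beside −0.14 and −0.15 for all bivalent promoters. All points come from the same 4 libraries, so these correlations are descriptions across genes.

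**Figure D4:**
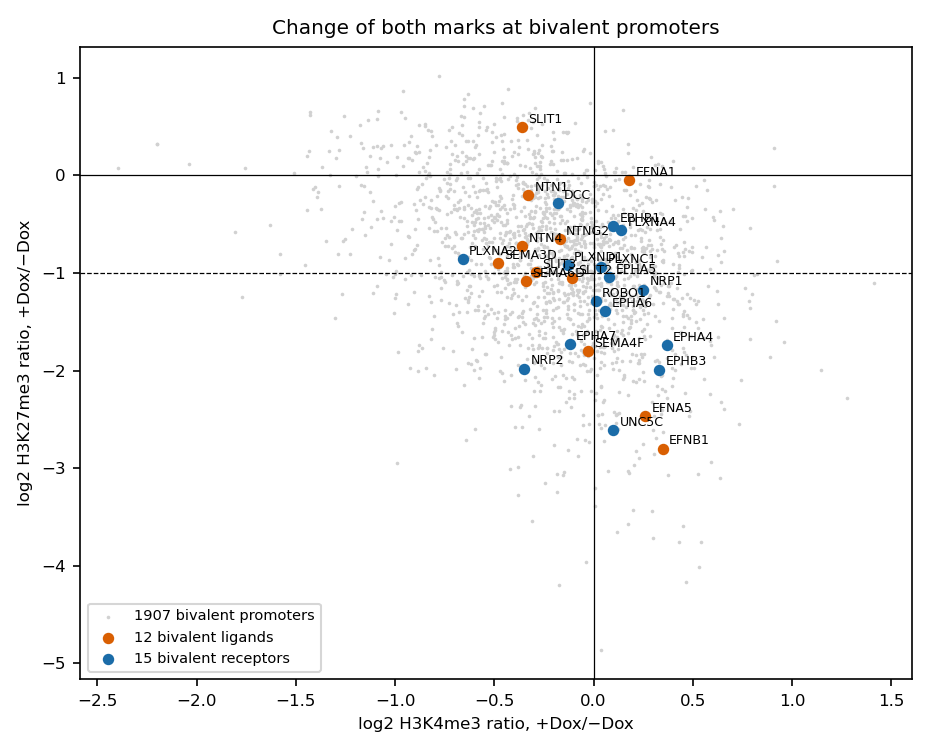
Log2 ratio (+Dox/−Dox) of H3K4me3 (x axis) against that of H3K27me3 (y axis) for all 1907 bivalent promoters (grey), 12 bivalent ligands (orange) and 15 bivalent receptors (blue), 1 library per mark and condition. The dashed line marks a ratio of 0.5, and EFNB1, EFNA5, EPHB3 and EPHA4 lie below it and to the right of 0, as do UNC5C, NRP1, EPHA5, EPHA6 and ROBO1.

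Of the 55 members above 20 for H3K4me3 in −Dox, all 55 stayed above 20 in +Dox, as did 12471 of 12887 promoters. The interval of the H3K4me3 ratio lay below 1 at 3 members (5.45%), beside 4.17% of those promoters, and above 1 at none, beside 1.71%. The 3 were H3K4me3-only genes. SEMA6A, a transmembrane semaphorin with the highest H3K4me3 of the members, had 263 in −Dox and 201 in +Dox, a ratio of 0.763 with an interval of 0.625 to 0.935. UNC5B, a netrin receptor also found in vessels, had 113 and 79.4, a ratio of 0.704 (0.508 to 0.966). EPHB6, a kinase-inactive receptor, had 85.5 and 43.2, a ratio of 0.506 (0.332 to 0.763). H3K27me3 at these 3 genes was under 12 in both conditions. With low promoters scaled to a ratio of 1, which multiplies +Dox H3K4me3 by 0.892, the count below 1 became 9, adding SEMA3D, SEMA3F, PLXNA2, EFNA3, EFNA4 and EFNB3. That is 16.4% of the 55 members, beside 11.9% of all promoters above 20 under the same scaling.

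Sequence around the start followed the class in part. In the 1001 bases centred on the start, the median CpG count was 89 for the 27 bivalent members and 88.5 for the 26 placed H3K4me3-only members, but 32 for the 11 placed unmarked members. Over all promoters the medians were 86, 76 and 15. ROBO1 was the bivalent member with the fewest CpG dinucleotides, 26, and PLXND1 that with the most, 142. The CpG count and the log2 H3K27me3 ratio of bivalent members had a Spearman's rho of 0.19, beside 0.04 for all bivalent promoters. PLXNA1, a receptor for class 3 semaphorins, and EPHA8 were unmarked in spite of 165 and 130 CpG dinucleotides, with H3K4me3 of 4.56 and 19.9 in −Dox. The 2 members with a GC content of at least 80% in this stretch, EFNA2 and PLXNA1, had H3K4me3 of 31.3 and 4.56 in −Dox. The median over the 88 promoters of that GC content was 57.7. The part of GC content in these values was not tested.

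**Figure D5:**
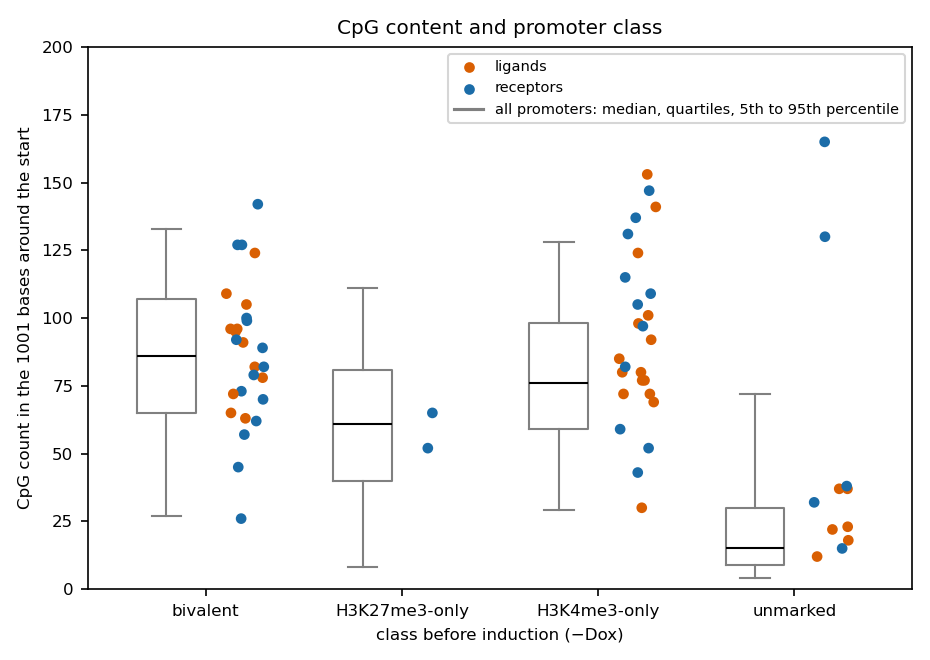
CpG count in the 1001 bases around the start (y axis) by −Dox class (x axis). Boxes give the median, quartiles and 5th to 95th percentile of all placed promoters, and points are the placed ligands (orange) and receptors (blue). Bivalent members spread from 26 to 142, and PLXNA1 (165) and EPHA8 (130) stand above the other unmarked members.

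The other genes of the pathway fell into contrasting groups. Of 29 further guidance cues, co-receptors and adhesion molecules, 13 (44.8%) were bivalent, beside 9.42% of all promoters, and 10 of these had a ratio below 0.5, beside 40.8% of all bivalent promoters. Their median log2 ratio was −1.42, beside −0.81. RGMA, a repulsive ligand of neogenin, had H3K27me3 of 39.2 in −Dox and 5.97 in +Dox. NRCAM, an adhesion molecule that partners with neuropilins, had 59.7 and 10.8, and its H3K4me3 ratio of 1.40 had an interval of 1.01 to 1.94. At GPC1 the H3K4me3 ratio was instead 0.613 with an interval of 0.411 to 0.915, and the H3K27me3 ratio was 0.373 (0.144 to 0.885). Among these 13 genes, the H3K4me3 interval lay above 1 only at NRCAM (7.69%), beside 1.57% of all bivalent promoters. It lay below 1 only at GPC1 (7.69%), beside 9.65%. With low promoters set to a ratio of 1, +Dox H3K4me3 is multiplied by 0.892, and the NRCAM interval then includes 1. SHH, the floor plate morphogen that also guides axons, had H3K27me3 of 112 and 86.9, with an interval of 0.554 to 1.07. By contrast, of 43 cytoplasmic effectors that act downstream of the receptors, 29 were H3K4me3-only and 6 (14.0%) were bivalent, a share nearer to the 9.42% of all promoters. The lowest ratio among these 6 was at DPYSL3, a collapsin response mediator protein, with H3K27me3 of 28.9 and 4.85 and a ratio of 0.168 (0.0450 to 0.529). RAC1, CDC42 and RHOA, small GTPases of the cytoskeleton, were among the 29, and the remaining 8 effectors were unmarked.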

How the data were processed

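ChIP-seq libraries of JMJD3c-hESCs were made by the authors with antibodies against H3K27me3 and H3K4me3, with 1 library for each mark in −Dox and +Dox. The authors sequenced single-end reads, mapped them to hg19 with Bowtie2 (version not given in the sources used here) and removed mitochondrial reads; CASAVA 1.4 is named in the submitters' processing notes. The deposited values are signal, read coverage by ngs.plot scaled to library size over 3 kb on each side of the start of 1 transcript per gene. No input library was used here, and a uniform loss over the genome cannot be seen in values scaled to library size. The study also describes a scaling of profiles to regions downstream of genes, and the sources do not say if these values had it.

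Promoters were classed on −Dox values with a threshold of 20, as in the study's methods, and changes are plain +Dox/−Dox ratios without a pseudocount. Every value was a whole multiple of 1 step size per library (tolerance 0.02 steps), from which approximate reads were estimated: about 194729, 167346, 943239 and 699015 reads in the windows of H3K27me3 −Dox and +Dox and H3K4me3 −Dox and +Dox. For each ratio, a 95% Clopper-Pearson interval was computed on the share of these reads in +Dox and turned into a ratio. This interval covers counting error only. It was tried on simulated reads drawn with the counting error that it assumes and with equal depth in both conditions. The estimate of reads from the signal and unequal depths were not part of that trial. Intervals of medians come from order statistics over the members. Transcripts were placed with GENCODE release 44 lifted to GRCh37 (18244 promoters, 90.1%; 66 of 70 members, without EFNB2, EPHB6, SEMA3C and SEMA3E). Of the 66, 47 starts equal the canonical start of the gene and 6 lie over 1 kb away (SEMA3A, SEMA4A, SEMA4B, SEMA6D, ROBO2 and NRP1).

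Genes named singly were, per family, the member with the highest −Dox H3K27me3 and the bivalent member with the lowest ratio, every member whose interval excluded 1, and textbook ligand and receptor pairs; other members were named for their place at a threshold, their start or their CpG count after values were seen. Promoter sequences were printed for the member with the highest −Dox H3K27me3, the bivalent member with the lowest ratio and the unmarked member with the lowest summed signal; that of an H3K4me3-only member is not reported here. Members, lists and alternatives were chosen with earlier results of these data known. Python 3.11.15, numpy 2.4.6, pandas 2.3.3, scipy 1.17.1 and matplotlib 3.10.9 were used. Alternatives in scaling, pseudocount, class threshold, the condition that sets the class and the start used are given at the end.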

Additional observations from a re-analysis of the deposited data

How the results depend on the processing

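No paired analysis was possible because there is 1 library per group. Leaving out a library was likewise impossible. The number of bivalent members was 27 as reported and 17 with classes from the +Dox values, which keep only promoters that still carry H3K27me3. It lay between 21 and 37 with a threshold of 30 or 10, with classes from the mean of both conditions, or without promoters over 1 kb from the canonical start or not placed. The median log2 H3K27me3 ratio of bivalent members ranged from −1.04 to −0.80 over all settings, the latter with both libraries scaled to the same total, under which the median over all bivalent promoters was −0.58. The share with a ratio below 0.5 ranged from 35.3%, with classes from the +Dox values (17.8% of all bivalent promoters), to 52.4%, with a threshold of 30 (38.2%). It was 37.0% with both libraries scaled to the same total, beside 29.7% of all bivalent promoters. The median log2 H3K4me3 ratio ranged from −0.20 to 0.04 and so had no fixed sign. At EFNB1 the log2 H3K27me3 ratio was −2.80 as reported and −1.93 with a pseudocount of 5. No member symbol had more than 1 promoter, so keeping 1 promoter per symbol had no effect. Counting error limits the values: a promoter at the threshold rests on about 15.5 reads in H3K27me3 −Dox, and the intervals of single genes are wide.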
